A study of Homo sapiens with 6 samples.

Results

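Canonical WNT signalling starts when a lipid-modified WNT protein binds a Frizzled receptor and an LRP co-receptor. The complex of AXIN, APC and GSK3B then stops marking beta-catenin for destruction, and beta-catenin enters the nucleus and acts through TCF/LEF factors. Among the genes it switches on are brakes on the pathway itself, such as AXIN2, the ubiquitin ligases RNF43 and ZNRF3 that remove Frizzled receptors, and NKD1. R-spondins and their receptors of the LGR family protect Frizzled from those ligases.

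The genes described here are 46 WNT ligands, Frizzled and LRP receptors, secreted inhibitors, destruction complex genes, TCF/LEF factors and feedback targets, taken by symbol from the 35238 symbols of the count table. All 46 were in the table, and 37 of them passed the filter on low counts among the 16954 genes tested. RNA was sequenced from 3 libraries of DEGS1 knockout HAP1 cells and 3 libraries of wildtype HAP1 cells, all untreated and collected 24 h after passage in medium with 5% serum. HAP1 is an established, near-haploid human line that stems from a chronic myeloid leukaemia, and DEGS1 encodes the desaturase that makes ceramide from dihydroceramide. The labels do not say how many knockout clones were used or whether replicates were separate cultures. The p-values therefore measure only the spread among these libraries, which may be technical. The comparison made is knockout against wildtype.

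Total counts were 19389644 to 27659835 per library in the knockout and 17322756 to 28988522 in wildtype. DEGS1 stood at 9.49, 6.88 and 10.4 CPM (read counts scaled by effective library size) in knockout replicates 1 to 3, against 105, 123 and 95.5 CPM in wildtype replicates 1 to 3. Its log2 fold change, knockout over wildtype here and throughout, was -3.59 (SE 0.17, adjusted p = 3.07e-07 by edgeR). Over all genes tested, 256 rose and 500 fell at an adjusted p under 0.05. After removal of a length and GC trend per library, these were 386 and 442, which put the share of calls that were higher at 46.6% against 33.9%. Wildtype replicate 2 stood apart: without it 3825 genes were called, against 756 with all libraries, so a pass in that fit was common. Of 14 blood cell markers 9 passed the filter on low counts, with TAL1 and GATA2 the highest in CPM, while SPI1 and HBG1 had no count in any library. The blood markers summed to 90.2 to 96.5 CPM in the knockout and 68.8 to 85.1 CPM in wildtype, with 1 gene rising and 2 falling of 9 tested. The riser TAL1 held 53.1 to 64.1 CPM of the knockout sums and 24.8 to 32.7 CPM of the wildtype sums. KIT and RUNX1 fell, with log2 fold changes of -1.01 and -1.43. For 10 epithelial markers the sums were 71.8 to 108 CPM in the knockout and 78.8 to 81.6 CPM in wildtype, with 3 of 9 tested falling. Most of these sums was KRT18, which was not called, with 58.8 to 78.4 CPM in the knockout and 46.9 to 58.0 CPM in wildtype. EPCAM, CLDN7 and ESRP1 fell to 0.124, 0.0992 and 0.348 of their wildtype levels, from wildtype means of 2.16, 1.17 and 5.6 CPM. Of the other markers, 9 fibroblast genes summed to 10.6 to 15.4 CPM in the knockout and 8.76 to 15.2 CPM in wildtype with no call among 6 tested and 1 of these at an unadjusted p under 0.05. The 8 neural genes summed to 637 to 708 CPM in the knockout and 486 to 586 CPM in wildtype, with 2 of 6 tested rising. The riser NES held 254 to 310 CPM of the knockout sums and 139 to 189 CPM of the wildtype sums. The other riser, MAP2, held 55.1 to 83.6 CPM in the knockout and 19.0 to 33.3 CPM in wildtype. SOX2, TUBB3 and GFAP had negative log2 fold changes (-0.07, -0.15 and -0.48) and PAX6 a positive one (0.45), without a call. Of all 30 markers tested 26.7% were called, where 4.46% of all genes were. The part of such markers in the WNT results was not tested, and in bulk RNA fewer cells of a type and less RNA per cell cannot be told apart.

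Of the 37 members tested, 4 rose and 1 fell in the knockout. The ligand WNT10B, the receptor FZD7, the secreted Dickkopf protein DKK3 and the R-spondin receptor LGR4 rose, between 1.46-fold and 2.35-fold. The nuclear factor LEF1 fell to 0.498 of its wildtype level. These 5 calls were 13.5% of the members tested, and over all genes tested 4.46% were called, 1.51% as higher and 2.95% as lower. The members were chosen with earlier results of these data known, so this share and the next ones are not independent of these data. In 16 members, 8 higher and 8 lower, the 3 knockout libraries did not overlap the 3 wildtype libraries. That is 43.2% of those tested, where over all genes 20.8% did not overlap, 9.24% higher and 11.6% lower. An unadjusted p under 0.05 was reached by 12 members, 7 higher and 5 lower, or 32.4% of those tested, where over all genes 16.5% reached it, 6.69% higher and 9.81% lower. The log2 fold change was positive in 17 members and in 47.3% of all genes. The median log2 fold change of the members was -0.02, and that of all genes was -0.02 as well. Left out in turn, single libraries moved the number of members called between 1 (without knockout replicate 1, and again without knockout replicate 3) and 13 (without wildtype replicate 2). It was 2 without wildtype replicate 1, 3 without wildtype replicate 3 and 4 without knockout replicate 2. The calls over all genes moved in the same fits, to 424, 625 and 380 without knockout replicates 1, 2 and 3, and to 441, 3825 and 571 without wildtype replicates 1, 2 and 3, against 756 with all libraries. Among the fits with 1 library left out, CTNNB1, WNT5B, FZD8, NKD1, RNF43, TCF7, WNT11 and WNT2B passed only without wildtype replicate 2.

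**Figure D1:**
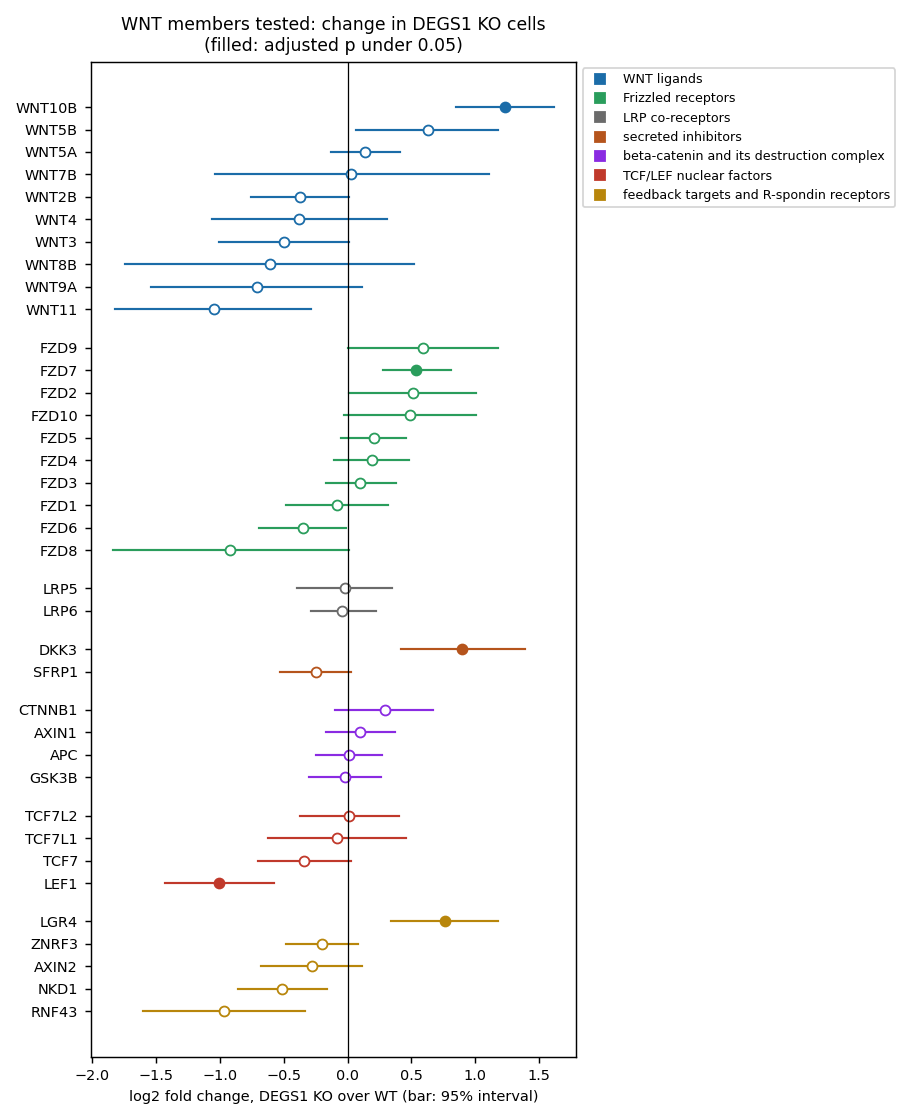
Log2 fold change of each of the 37 members tested, knockout over wildtype, with its 95% interval (n = 3 libraries each), grouped and coloured by role, with filled points for adjusted p under 0.05. The filled points are WNT10B, FZD7, DKK3 and LGR4 to the right of 0 and LEF1 to the left, and each LRP and destruction complex gene has an interval that includes 0.

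The promoters of called members are shown where the RefSeq table (build GRCh38.p14) holds them. Of the 46 members 31 were matched there, among them LEF1 and LGR4 but not WNT10B, FZD7 or DKK3. Each line gives the 250 bases before the gene's start, 5′ to 3′ on the gene's strand. The windows are chr4:108166302-108166551 (minus strand) for LEF1 and chr11:27472791-27473040 (minus strand) for LGR4. DKK1, at chr10:52314031-52314280 (plus strand), is shown as the one member whose window held a TCF/LEF heptamer, CTTTGAT or CTTTGAA on either strand. Capitals mark that heptamer and each CCAAT box on either strand.
LEF1: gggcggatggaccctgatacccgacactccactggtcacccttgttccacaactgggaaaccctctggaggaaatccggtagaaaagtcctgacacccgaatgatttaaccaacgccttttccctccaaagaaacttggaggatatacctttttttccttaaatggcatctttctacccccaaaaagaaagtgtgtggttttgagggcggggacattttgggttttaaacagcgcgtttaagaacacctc
LGR4: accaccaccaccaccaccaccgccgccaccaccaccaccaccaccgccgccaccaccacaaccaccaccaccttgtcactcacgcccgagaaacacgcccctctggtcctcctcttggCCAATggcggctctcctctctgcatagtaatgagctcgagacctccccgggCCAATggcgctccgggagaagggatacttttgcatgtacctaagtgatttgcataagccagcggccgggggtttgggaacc
DKK1: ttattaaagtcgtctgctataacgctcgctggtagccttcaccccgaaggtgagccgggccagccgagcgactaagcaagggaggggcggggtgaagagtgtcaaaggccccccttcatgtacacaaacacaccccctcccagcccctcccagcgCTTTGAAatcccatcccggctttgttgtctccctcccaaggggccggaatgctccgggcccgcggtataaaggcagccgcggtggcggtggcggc

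The TCF/LEF heptamer of DKK1 begins 95 bases before the start, in 1 of the 39 windows of the matched members (2.56%), where 5.94% of all 35116 windows in the table held such a heptamer. The CCAAT boxes of LGR4 begin 132 and 81 bases before the start. A CCAAT box was in 14 of the 39 member windows (35.9%) and in 32.0% of all windows. The LEF1 window held neither set of letters. A match describes the letters only, and a TCF/LEF site elsewhere is not addressed by these windows.

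Among the 16 ligands, WNT10B rose and was the only one called of 10 tested. WNT10B is a ligand of the beta-catenin branch, best known for holding back fat cell formation and favouring bone. It had 10.9, 9.41 and 9.69 CPM in the knockout libraries, against 4.21, 4.46 and 4.07 CPM in the wildtype libraries. The lowest knockout library thus lay above the highest wildtype one by a gap wider than the range within either genotype. The log2 fold change was 1.23 (SE 0.18, adjusted p = 0.00161 by edgeR), a 2.35-fold higher level. WNT10B passed in each of the 16 other settings tried, with log2 fold changes of 1.18 to 1.28.

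WNT5A, a ligand that mostly acts without beta-catenin, averaged 4.23 CPM per kilobase of transcript in the knockout and 3.84 in wildtype. WNT10B averaged 4.4 CPM per kilobase in the knockout and 1.86 in wildtype, so that the order of these means differed narrowly between genotypes. The order rests on division by the longest transcript. In CPM WNT5A had the higher mean in both genotypes, 26.1 against 10.0 in the knockout and 23.7 against 4.24 in wildtype. For WNT5A the libraries held 22.9, 28.3 and 27.0 CPM in the knockout and 22.9, 24.8 and 23.2 CPM in wildtype, so its groups overlapped (log2 fold change 0.14, 95% interval -0.13 to 0.41). WNT10B made up 34.3%, 29.3% and 29.5% of the ligands' summed CPM per kilobase in the knockout, against 15.1%, 16.0% and 14.6% in wildtype. WNT10B stood above WNT5A in knockout replicate 1, where WNT5A held 26.5%, and below it in knockout replicates 2 and 3, where WNT5A held 32.5% and 30.3%. In each wildtype library WNT5A held the larger share, from 30.3% to 32.7%. The ligand sum was 14.0, 14.1 and 14.5 CPM per kilobase in the knockout and 12.2, 12.3 and 12.3 in wildtype. Without WNT10B it was 9.2, 10.0 and 10.2 in the knockout and 10.4, 10.3 and 10.5 in wildtype. The nearest libraries of the genotypes were then only 10.2 and 10.3. WNT10B was left out because it rose in these same libraries, so this order is no result about the other ligands.

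The remaining ligands gave no call. WNT5B, a close relative of WNT5A, had 3.08, 4.51 and 4.15 CPM in the knockout and 2.12, 2.93 and 2.57 CPM in wildtype, without overlap. Its log2 fold change was 0.63 (SE 0.25, adjusted p = 0.235 by edgeR, and 0.0472 without wildtype replicate 2). WNT11, which guides cell movements in the early embryo, had 1.03, 0.574 and 0.802 CPM in the knockout and 1.34, 1.56 and 2.09 CPM in wildtype. Again the groups did not overlap (log2 fold change -1.05, SE 0.35, adjusted p = 0.138 by edgeR, and 0.0427 without wildtype replicate 2). WNT3, a ligand needed for the primitive streak in the mouse, had a log2 fold change of -0.50 (95% interval -1.01 to 0.01), and WNT9A one of -0.71 (-1.54 to 0.11), each without overlap. WNT2B stood at -0.37 (SE 0.18, adjusted p = 0.321 by edgeR) and passed without wildtype replicate 2 (-0.52, edgeR adjusted p = 0.0228). WNT4, WNT7B and WNT8B overlapped between genotypes, with intervals that reached from -1.74 to 1.11 at mean levels of 0.368 to 2.48 CPM.

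The other 6 ligands were under the filter. WNT3A had no count in any library and WNT1 had 1 count, in knockout replicate 1. WNT6 had 5 counts over the knockout libraries and 2 over the wildtype libraries, and WNT7A 7 in each genotype. WNT10A had 16 counts in the knockout and 19 in wildtype, and WNT16 had 11 in the knockout and 17 in wildtype. At these depths 3 counts, the floor used here, are 0.109 to 0.154 CPM per knockout library and 0.111 to 0.161 CPM per wildtype library. In the fit with no filter none of the 5 ligands with a count passed, the smallest edgeR adjusted p being 0.689, and the errors were wide (WNT10A -0.18 with SE 0.67, WNT16 -0.60 with SE 0.70).

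All 10 Frizzled receptors were tested, and FZD7 rose. FZD7 is a receptor known for its part in human pluripotent stem cells. It had 26.4, 24.7 and 26.7 CPM in the knockout and 18.5, 16.3 and 18.6 CPM in wildtype, with the groups well apart. For FZD7 the log2 fold change was 0.54 (SE 0.12, adjusted p = 0.0243 by edgeR). The call was lost without knockout replicate 1 (0.0864), without knockout replicate 3 (0.127) and without wildtype replicate 1 (0.0949). It was lost also with upper-quartile scaling (0.0562) and with library size only (0.1).

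FZD6 had the highest level per kilobase of the family, 9.66 CPM per kilobase in the knockout and 12.3 in wildtype. FZD6 is known for aligning hairs in the mouse through planar cell polarity. Its libraries held 33.8, 40.9 and 35.0 CPM in the knockout and 41.3, 58.9 and 39.4 CPM in wildtype, and the groups overlapped because knockout replicate 2 passed wildtype replicate 3. The log2 fold change was -0.35 (95% interval -0.69 to -0.01, edgeR adjusted p = 0.285). FZD5 followed at 9.32 CPM per kilobase in the knockout and 8.06 in wildtype, and in knockout libraries the shares of FZD5 and FZD6 lay close together, at 20.8% to 23.4% and 21.6% to 23.8%. In wildtype FZD5 held 18.0% to 22.5% and FZD6 28.0% to 36.3%. FZD7 held 16.6%, 14.2% and 17.1% of the Frizzled sum in the knockout and 12.3%, 9.88% and 13% in wildtype.

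FZD2, FZD9 and FZD10 also did not overlap between genotypes, and were higher in the knockout without passing the test. FZD2 had 7.54, 4.78 and 5.65 CPM in the knockout and 3.77, 4.16 and 4.66 CPM in wildtype (log2 fold change 0.51, SE 0.23, adjusted p = 0.292 by edgeR). FZD9 had 2.72, 2.41 and 2.11 CPM in the knockout and 1.73, 1.41 and 1.66 CPM in wildtype, and FZD10 had 3.18, 3.4 and 3.24 CPM in the knockout and 2.40, 2.04 and 2.57 CPM in wildtype. The log2 fold change was 0.59 for FZD9 (SE 0.27) and 0.49 for FZD10 (SE 0.24). FZD8 stood at -0.92 (SE 0.42, adjusted p = 0.31 by edgeR), and passed without wildtype replicate 2 (-1.23, edgeR adjusted p = 0.0226). FZD1, FZD3, FZD4 and FZD5 overlapped, with log2 fold changes of -0.08 to 0.21. FZD4, which also serves the ligand Norrin in retinal vessels, had the interval -0.11 to 0.48 and FZD3, known from axon guidance in the mouse, -0.17 to 0.38. Over the family, the sum of CPM per kilobase was 41.2, 45.3 and 40.5 in the knockout and 39.0, 42.8 and 37.0 in wildtype, which overlapped.

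**Figure D2:**
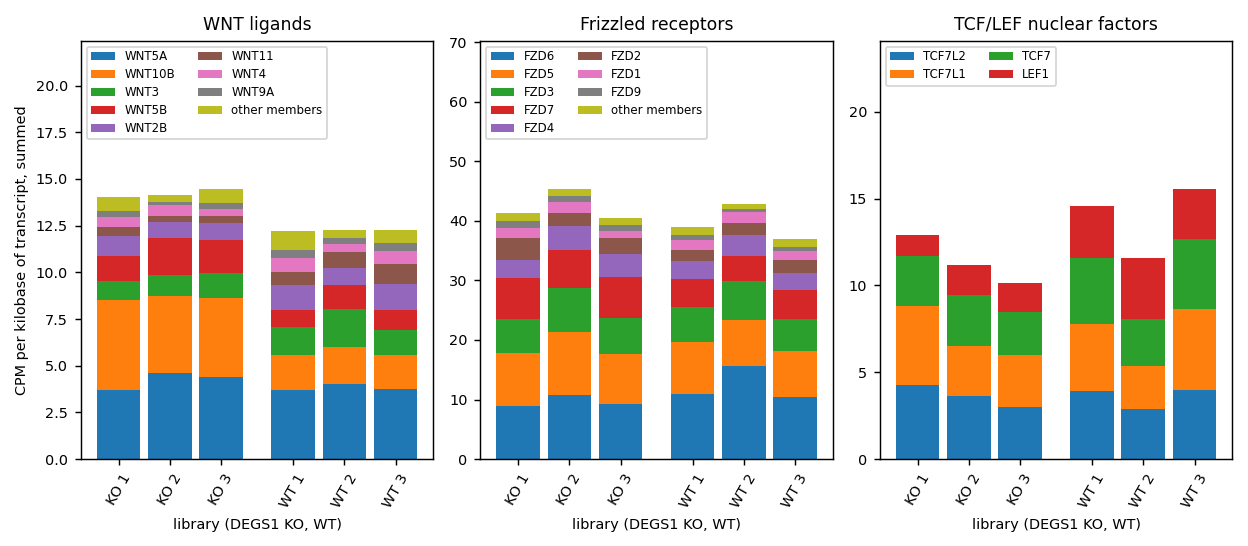
Summed level (CPM per kilobase of transcript) of the ligands, the Frizzled receptors and the TCF/LEF factors in each library, knockout left and wildtype right, split by member, with the lowest ligands and Frizzled receptors pooled as other members. The WNT10B layer covers 29.3% to 34.3% of the ligand bar in knockout libraries and 14.6% to 16.0% in wildtype ones, and the LEF1 layer covers 9.35% to 16.5% of the TCF/LEF bar in knockout libraries and 18.4% to 30.4% in wildtype ones.

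The co-receptors LRP5 and LRP6, which pass the signal from Frizzled to AXIN, did not pass the test. LRP6 had 302, 287 and 292 CPM in the knockout and 309, 309 and 286 CPM in wildtype. These overlapped, and the log2 fold change of -0.04 had a 95% interval of -0.29 to 0.22. It changed sign with the length and GC trend removed (0.10). LRP5, at 29, 20.1 and 24.9 CPM in the knockout and 26.0, 19.6 and 29.6 CPM in wildtype, stood at -0.02 (-0.40 to 0.35). LRP6 had the higher level per kilobase, 29.3 CPM per kilobase in the knockout and 30.0 in wildtype, while LRP5 had 4.79 in the knockout and 4.87 in wildtype.

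Of the 4 secreted inhibitors, DKK3 rose and SFRP1 did not pass. DKK3 is the divergent member of the Dickkopf family, whose best known member, DKK1, blocks LRP5 and LRP6. It had 8.47, 5.74 and 9.22 CPM in the knockout and 3.93, 4.16 and 4.45 CPM in wildtype. The lowest knockout library, replicate 2, still lay above each wildtype library. For DKK3 the log2 fold change was 0.90 (SE 0.22, adjusted p = 0.0413 by edgeR). The call was lost in 9 of 16 other settings, among them the fits without knockout replicates 1 (0.149) and 3 (0.25), without wildtype replicates 1 (0.175) and 3 (0.0605), and with chromosome medians removed (0.066). For DKK3 the difference on the log2 scale stayed between 0.77 and 1.09 over these settings, and was 0.84 with chromosome medians removed.

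SFRP1, a decoy that binds WNT proteins, had 15.7, 14.6 and 13.5 CPM in the knockout and 16.8, 17.8 and 17.5 CPM in wildtype. The groups did not overlap, but the difference was small (log2 fold change -0.25, SE 0.13, adjusted p = 0.368 by edgeR). Which inhibitor had the higher level per kilobase hung on the transcript length used, SFRP1 with the longest transcript and DKK3 with the median coding transcript. DKK1 was near the floor, with 12 counts over the knockout libraries and 18 over the wildtype libraries, and SFRP2 had no count in any library.

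Beta-catenin and the genes of its destruction complex did not pass the test. CTNNB1, which encodes beta-catenin, had 627, 781 and 705 CPM in the knockout and 529, 728 and 474 CPM in wildtype. It overlapped through wildtype replicate 2, and the log2 fold change was 0.29 (95% interval -0.10 to 0.67, edgeR adjusted p = 0.46). Without wildtype replicate 2 CTNNB1 passed, at 0.49 (edgeR adjusted p = 0.00962), with the 3 knockout libraries above the other wildtype libraries. That fit kept knockout replicate 2, the highest knockout library, and called 3825 of all genes. With the replicate number as a block CTNNB1 stood at 0.31 and did not pass (edgeR adjusted p = 0.207). It had the highest level per kilobase of all members, 144 CPM per kilobase in the knockout and 118 in wildtype.

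APC, the scaffold that holds beta-catenin in the complex, had 138, 168 and 139 CPM in the knockout and 144, 155 and 143 CPM in wildtype. GSK3B, the kinase that marks it, had 79.9, 104 and 76.2 CPM in the knockout and 85.9, 89.3 and 88.2 CPM in wildtype. AXIN1, the scaffold that limits the complex, had 55.3, 42.7 and 50.2 CPM in the knockout and 48.1, 41.0 and 49.3 CPM in wildtype. In all 3 the groups overlapped, and the 95% intervals of the log2 fold change were -0.25 to 0.27 for APC, -0.30 to 0.26 for GSK3B and -0.17 to 0.37 for AXIN1.

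Of the 4 TCF/LEF factors LEF1 fell. LEF1 is itself a beta-catenin target in many tissues, and in blood it marks lymphoid precursors. It had 4.21, 6.12 and 5.83 CPM in the knockout and 10.4, 12.2 and 9.96 CPM in wildtype. The highest knockout library lay well below the lowest wildtype one. LEF1 had a log2 fold change of -1.01 (SE 0.19, adjusted p = 0.0115 by edgeR). The call was lost without knockout replicate 1 (0.0659) and without knockout replicate 3 (0.0514), and kept in the other 14 settings.

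The other 3 factors overlapped between genotypes. TCF7, the T cell factor first described, had 15.6, 15.7 and 13.2 CPM in the knockout and 20.3, 14.4 and 21.4 CPM in wildtype. Its log2 fold change was -0.34 (SE 0.17, adjusted p = 0.348 by edgeR), and without wildtype replicate 2, its lowest wildtype library, -0.49 (edgeR adjusted p = 0.0199). TCF7L1, which mostly represses, had 13.5, 8.53 and 8.97 CPM in the knockout and 11.5, 7.35 and 13.9 CPM in wildtype. TCF7L2, the main factor of the intestine, had 17.5, 15.0 and 12.3 CPM in the knockout and 16.2, 11.9 and 16.4 CPM in wildtype. Its log2 fold change of 0.01 (95% interval -0.37 to 0.40) changed sign in 5 of 16 settings. LEF1 held 9.35%, 15.7% and 16.5% of the family's summed CPM per kilobase in the knockout and 20.5%, 30.4% and 18.4% in wildtype.

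**Figure D3:**
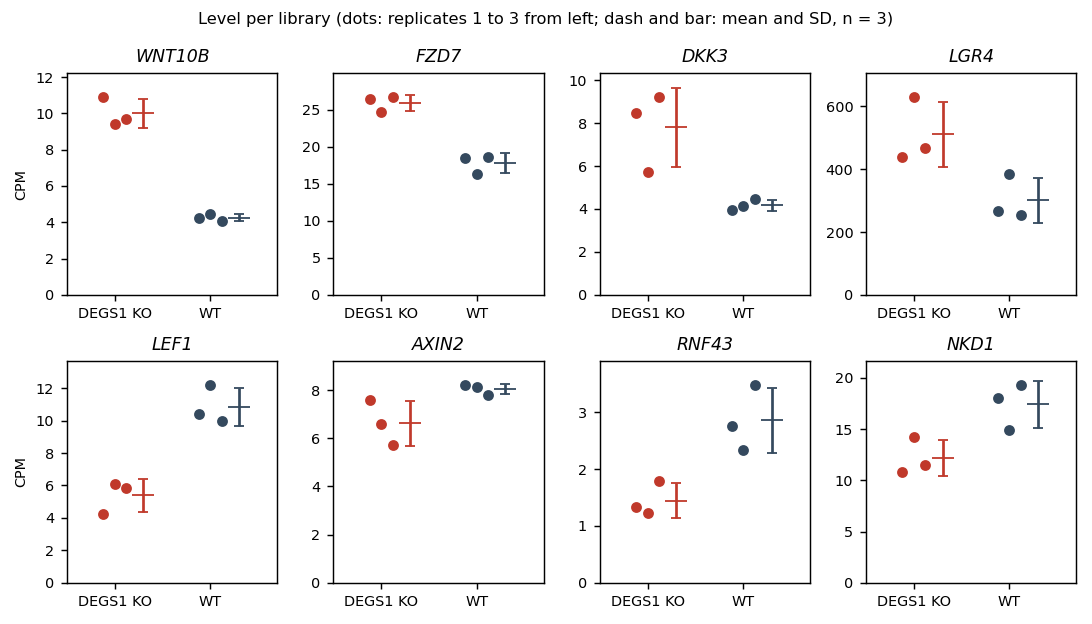
CPM in each library for the 5 called members and for 3 feedback targets that did not pass the test, knockout left and wildtype right, with the mean and SD (n = 3). In each of the 8 genes the knockout and wildtype libraries do not overlap, and LGR4 is highest in replicate 2 of either genotype (630 CPM in the knockout and 384 CPM in wildtype). ZNRF3, a tested feedback target whose libraries overlap, is not shown, and over all genes tested 20.8% did not overlap.

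Of the 5 feedback targets and R-spondin receptors tested, LGR4 rose. The feedback brakes AXIN2, RNF43, ZNRF3 and NKD1 did not pass, with log2 fold changes of -0.97 to -0.20. LGR4 had 439, 630 and 466 CPM in the knockout and 268, 384 and 253 CPM in wildtype. Each knockout library was above each wildtype one, though replicate 2 was the highest library in either genotype, as it was for CTNNB1. The log2 fold change was 0.76 (SE 0.19, adjusted p = 0.0454 by edgeR). The call was lost when any library but wildtype replicate 2 was left out, with edgeR adjusted p of 0.0671, 0.177 and 0.123 without knockout replicates 1, 2 and 3, and 0.184 and 0.107 without wildtype replicates 1 and 3. It was lost also with limma voom (log2 fold change 0.77, adjusted p = 0.056) and with chromosome medians removed (0.70, edgeR adjusted p = 0.0733), so the size of the difference changed little there. LGR4 was the second highest member per kilobase, at 98.3 CPM per kilobase in the knockout and 57.8 in wildtype. LGR5, the stem cell receptor of the same family, had 1 count over the knockout libraries and 1 over the wildtype libraries.

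RNF43 had 1.33, 1.22 and 1.79 CPM in the knockout and 2.75, 2.34 and 3.48 CPM in wildtype, without overlap. Its log2 fold change was -0.97 (SE 0.29, adjusted p = 0.0961 by edgeR), and it passed without wildtype replicate 2 (-1.08, edgeR adjusted p = 0.0143). NKD1, a brake that binds Dishevelled, had 10.8, 14.2 and 11.5 CPM in the knockout and 18.0, 14.9 and 19.3 CPM in wildtype. It did not overlap either (log2 fold change -0.51, SE 0.16, adjusted p = 0.113 by edgeR, and 0.0127 without wildtype replicate 2). AXIN2, widely used as a readout of beta-catenin activity, had 7.59, 6.58 and 5.72 CPM in the knockout and 8.22, 8.13 and 7.82 CPM in wildtype. The gap between the groups was narrow, and the log2 fold change was -0.28 (95% interval -0.68 to 0.11, edgeR adjusted p = 0.474). ZNRF3, with 34.8, 30.4 and 29.4 CPM in the knockout and 39.5, 30.9 and 38.3 CPM in wildtype, overlapped (-0.20, 95% interval -0.48 to 0.08).

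Beyond the members, 83 other genes of the pathway were read from the same fit, a list also chosen with earlier results of these data known. Of 64 tested, 2 rose and 4 fell, or 9.38%, where 4.46% of all genes were called, 1.51% higher and 2.95% lower, with a median log2 fold change of -0.05. DAAM1, a formin that links Dishevelled to the actin skeleton, had 79.7, 115 and 74.7 CPM in the knockout and 42.5, 43.4 and 40.9 CPM in wildtype (log2 fold change 1.09, SE 0.15, adjusted p = 0.0014 by edgeR). PRICKLE2, a planar cell polarity protein, rose at a very low level, with wildtype near the counting floor, and had 0.667, 0.841 and 0.692 CPM in the knockout and 0.157, 0.111 and 0.107 CPM in wildtype. The log2 fold change of PRICKLE2 was 2.49 (SE 0.47, adjusted p = 0.00961 by edgeR, and 0.0514 without knockout replicate 3). Its paralog PRICKLE1 fell to 23.9 ± 0.83 CPM in the knockout, against 36.1 ± 6.94 CPM in wildtype (SD, n = 3 each; log2 fold change -0.60, SE 0.14, adjusted p = 0.0335 by edgeR). The call of PRICKLE1 was lost without knockout replicates 1 (0.132), 2 (0.0899) and 3 (0.167) and without wildtype replicate 1 (0.0714), with limma voom (0.0557) and with the length and GC trend removed (0.0872).

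TRABD2A, a membrane protease that inactivates WNT proteins, fell. It had 10.4, 8.68 and 11.8 CPM in the knockout and 21.5, 20.5 and 23.4 CPM in wildtype (log2 fold change -1.08, SE 0.15, adjusted p = 0.00125 by edgeR). The groups were far apart, and TRABD2A and DAAM1 each passed in all 16 other settings. PORCN, which adds the lipid to WNT proteins, and WLS, which carries them to the surface, overlapped, with log2 fold changes of -0.07 (95% interval -0.48 to 0.33) and 0.09 (-0.22 to 0.40). NOTUM, an enzyme that removes the lipid and is a target of the pathway, had 2.87, 1.38 and 2.51 CPM in the knockout and 3.30, 3.34 and 4.39 CPM in wildtype (log2 fold change -0.71, SE 0.30, adjusted p = 0.264 by edgeR). All of the 20 cytoplasmic transducers in the list were tested, among them DVL1, DVL2 and DVL3, and DAAM1 was the only one called. None of 16 nuclear cofactors was called by edgeR, and 3 of them (18.8%) had an unadjusted p under 0.05, where 16.5% of all genes did. Without wildtype replicate 2 the cofactors BCL9 (-0.53, edgeR adjusted p = 0.00439), CREBBP (-0.85, 0.00346) and EP300 (-0.84, 0.000194) passed. In that fit 3825 of all genes were called, against 756 with all libraries.

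Of 13 other genes often used as targets of the pathway 9 were tested, and 2 fell, among them TNFRSF19. An unadjusted p under 0.05 with a lower level in the knockout was reached by 6 of the 9, where 9.81% of all genes did so, and the median log2 fold change of the 9 was -0.47. These genes were listed with earlier results of these data known, so the share is not independent of these data. TNFRSF19, a receptor of the tumour necrosis factor family, had 5.80, 9.44 and 7.80 CPM in the knockout and 16.7, 15.3 and 14.2 CPM in wildtype. The difference on the log2 scale was -1.0 (SE 0.19, adjusted p = 0.00903 by edgeR, and 0.0522 without knockout replicate 3). TNFRSF19 lies on chromosome 13, whose genes had a median log2 fold change of -0.31, and with chromosome medians removed it stood at -0.66 (edgeR adjusted p = 0.0674). MYC, with 172, 192 and 192 CPM in the knockout and 253, 193 and 325 CPM in wildtype, stood at -0.47 (SE 0.17, adjusted p = 0.178 by edgeR), and passed without wildtype replicate 2 (-0.64, edgeR adjusted p = 0.00227). CCND1 and JAG1 had positive values, 0.41 (95% interval -0.48 to 1.30) and 0.07 (-0.16 to 0.29).

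**Figure D4:**
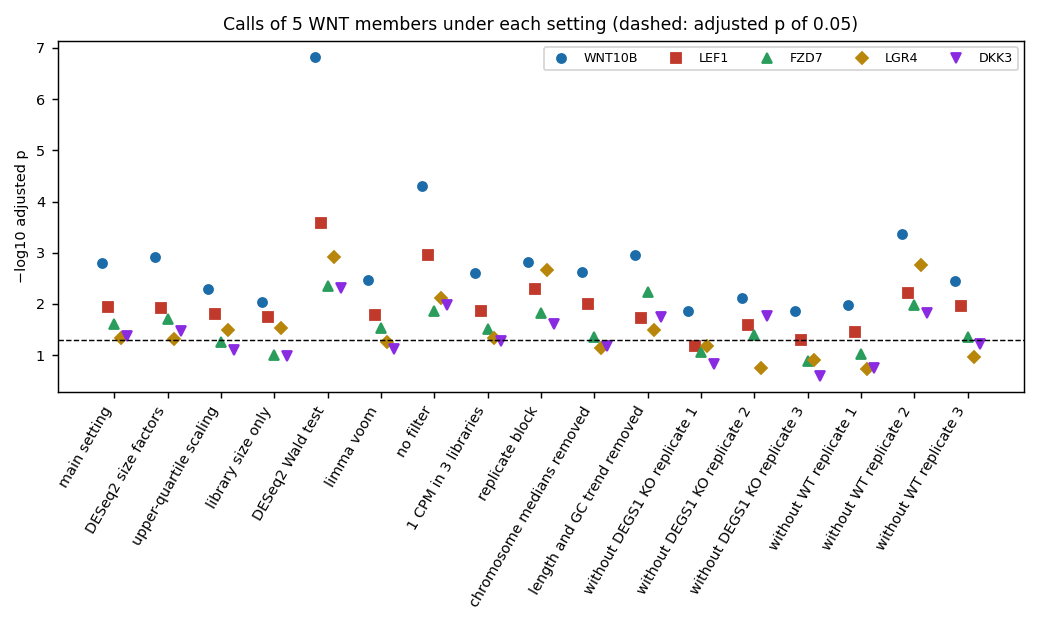
Adjusted p of the 5 called members (vertical axis, −log10) in the main setting and in 16 other settings, 6 of which leave out 1 library each, with the dashed line at 0.05. WNT10B stays above the line throughout (highest adjusted p 0.014), LEF1 drops below it without knockout replicate 1 or 3, and FZD7, LGR4 and DKK3 drop below it in 5, 7 and 9 settings.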

How the data were processed

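The authors deposited raw read counts for each gene symbol in 6 libraries. Per the labels' protocols, stranded total RNA libraries were made from 1 ug and read as single reads of 75 nt. Per the submitters' processing notes, bcl2fastq 2.20 and build hg19 were used. The aligner, counter, annotation and strand setting are unstated in the labels, so overlapping or near-identical genes could be split by the counting.

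The members and gene lists were chosen with earlier results of these data known. Counts were tested with edgeR 4.0.16 (R 4.3.3): expression filter by genotype, TMM scaling, robust quasi-likelihood F test on genotype, Benjamini-Hochberg adjustment over all 16954 genes, call at an adjusted p under 0.05. The SE was taken as |log2 fold change| divided by √F, and 95% intervals use the fit's degrees of freedom. Levels per kilobase divide by the longest GENCODE 29 transcript. Genes named are DEGS1, called members, in each role the smallest p and the highest level per kilobase, and called genes of the other pathway list; all others were named after their values were seen, and 1 called gene of that list is not reported here. On simulated data for this comparison 22.4% of 67 genes changed 1.5-fold, 61.9% of 63 changed 2-fold and 96.8% of 62 changed 4-fold were recovered, with 8 false calls among 16668. The simulation drew each gene independently and gave no library a deviation shared by many genes, so these rates may not hold for the real libraries. Other settings were DESeq2 1.42.0 size factors and Wald test, upper-quartile scaling, library size only, limma 3.58.1 voom, no filter, 1 CPM in 3 libraries, replicate block, chromosome medians or the length and GC trend removed, each library left out, and a threshold of 0.01. Counting floors cover counting error only. No 2 replicates agreed within sampling noise (chi-square per degree of freedom 12.6 to 52.6).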

Additional observations from a re-analysis of the deposited data

How the results depend on the processing

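The number of members called was 5. It was 3 with upper-quartile scaling, 3 with library size only, 3 with limma voom, 3 with chromosome medians removed and 1 at a threshold of 0.01, and 1 to 13 with 1 library left out. WNT10B was among the members called in every setting. Over all genes 756 were called, 375 at a threshold of 0.01 and 380 to 3825 with 1 library left out. Of the other pathway genes 6 were called, and 2 to 17 with 1 library left out. The causes were not tested. The sign of LRP6 changed with the length and GC trend removed (0.10). The sign of TCF7L2 changed with upper-quartile scaling (-0.02), library size only (-0.05), chromosome medians removed (-0.04), without knockout replicate 1 (-0.10) and without wildtype replicate 2 (-0.12), its range with 1 library left out being -0.12 to 0.14. Scalings moved the median log2 fold change of all genes by at most 0.0547. Same-numbered libraries of the 2 genotypes had correlations of their deviations of 0.215, 0.309 and -0.125 for replicates 1, 2 and 3, and knockout replicates 1 and 3 correlated better with another number. Same-numbered libraries also share a code in the labels, which do not say what it marks, so whether the numbers pair the samples is not established, and the main results carry no block. With the replicate number as a block 1082 genes, 6 members and 7 other pathway genes were called, the added genes being the member RNF43 (edgeR adjusted p = 0.0424, against 0.0961) and CELSR1 (0.0154, against 0.28). CTNNB1 was higher and FZD6 lower in the knockout within each of the 3 numbers, and neither passed with the block (0.207 and 0.0945). Depth limits the precision of the 9 members under the filter, none above 0.462 CPM in any library.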

Other observations

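Of the pathway genes under the filter on low counts, SOSTDC1 passed in the fit with no filter, and SFRP4, RSPO3 and SP5 did not. That fit called 1017 of all genes with a count, against 756 of the 16954 genes in the main fit. SOSTDC1, a secreted antagonist of BMP and WNT signals, had 19, 9 and 32 counts in the knockout libraries and 3, 6 and 4 counts in the wildtype libraries. With no filter SOSTDC1 was higher in the knockout by 2.14 on the log2 scale (SE 0.55, adjusted p = 0.0129 by edgeR). SFRP4, a WNT decoy, had 10, 15 and 9 counts in the knockout and 1, 2 and 6 counts in wildtype (1.80, SE 0.66, adjusted p = 0.139 by edgeR). RSPO3, a ligand of LGR4, had 1 count over the knockout libraries and 16 over the wildtype libraries (edgeR adjusted p = 0.0544). SP5, a transcription factor switched on by beta-catenin, had 3 counts over the knockout libraries, all in replicate 1, and 19 over the wildtype libraries (edgeR adjusted p = 0.156). These genes were chosen after their values were seen, and the filter setting decides whether they are tested.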
